A study of Mus musculus with 2 samples.

Results

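Dividing tumour macrophages were 260 of 23660 barcodes in a single-cell RNA-seq study of immune cells from mouse brain tumours, with 150 of 12165 barcodes in the Glut5 KO library and 110 of 11495 in the Wildtype library. They were chosen by a transcript gate on counts of unique molecular identifiers (UMIs), each of which stands for 1 captured RNA molecule. A cell needed at least 300 genes and under 10% mitochondrial UMIs. It also needed at least 100 UMIs per 10000 from the macrophage genes Lyz2, C1qa, C1qb, C1qc and Apoe. At most 1 UMI was allowed from P2ry12, Tmem119, Sall1, Gpr34, Olfml3 and Crybb1 (microglia), none from Cd3e, Cd3d and Cd3g (T cells), and at most 1 from Xcr1, Clec9a, Cd209a, Flt3, Ccr7 and Fscn1 (dendritic cells). Cells with at least 3 UMIs from Mki67, Top2a, Cdk1, Birc5 and Ube2c, called cycle UMIs here, were the dividing cells. The 3166 Glut5 KO and 2469 Wildtype cells of the same gate with at most 2 cycle UMIs were the non-dividing macrophages they were set against.

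Both libraries held CD45+ cells, collected with magnetic beads 14 days after CT-2A cells, a mouse glioma line, had been implanted in the brain. One library came from hosts labelled Glut5 KO, for the fructose transporter encoded by Slc2a5, and the other from Wildtype hosts. The series' design text calls the same hosts knockdown, and the sample labels are followed here. The labels apply the genotype to the host and name CT2A as the tumour in both groups. Each genotype was represented by 1 library, and the differences below therefore carry neither a test nor a p-value. The intervals in brackets cover 95% counting error only, and they understate the spread, because UMIs of 1 cell are not independent and the deeper cells carry most of them.

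Slc2a5 was present at 1 UMI in all Glut5 KO barcodes, against 384 UMIs in 292 Wildtype barcodes, mostly in cells rich in microglia markers. Neither library had a single Slc2a5 UMI in its dividing macrophages, which allows at most 3.18 CPM (UMIs per 1000000) in Glut5 KO and 4.14 CPM in Wildtype cells. The sample titles speak of a single mouse for each library, but both libraries mixed cells of both sexes, so more than 1 animal may have been pooled. Among dividing macrophages, 15 Glut5 KO and 21 Wildtype cells had Y-linked UMIs and no Xist, and 64 Glut5 KO and 13 Wildtype cells had Xist and no Y-linked UMI. The remaining 71 Glut5 KO and 76 Wildtype cells had neither or both. Of the 188 barcodes that occur in both libraries, 2 marked a dividing cell, and none marked one in both.

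Macrophages in brain tumours come from blood monocytes that enter the tissue and mature there, and from resident microglia. Most mature macrophages rest outside the cell cycle, but tissue macrophages can re-enter it, for which signalling through the CSF1 receptor is well known. In a cycling cell, E2F factors switch on replication genes before S phase, and a later wave of mitotic genes, controlled through CHR and CCAAT promoter elements, follows in G2 and M.

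Dividing macrophages had a median of 3227.5 UMIs in Glut5 KO and 4093.5 UMIs in Wildtype, against 4326 and 5474 UMIs in non-dividing macrophages, and 943048 and 725167 UMIs in all. The range ran from 745 to 32349 UMIs in Glut5 KO cells and from 533 to 21861 UMIs in Wildtype cells. The 56 of 150 Glut5 KO and 50 of 110 Wildtype cells with at least 5000 UMIs carried 74.9% and 82.3% of the UMIs. The limits of the gate are absolute UMI numbers, so deep cells tended to fall outside it. Of cells that passed the macrophage genes, 78.0% of Glut5 KO and 76.7% of Wildtype cells with under 1000 UMIs passed the whole gate, but 8.58% of Glut5 KO and 4.53% of Wildtype cells with at least 12000 UMIs did. A further 732 Glut5 KO and 1695 Wildtype cells had the macrophage genes and at least 3 cycle UMIs but failed another limit, in 679 and 1669 cases the microglia limit. The 150 and 110 cells are therefore the part of the dividing macrophage-gene cells that this gate retains. The main values below are given again for another set of cells, chosen with the gate read at equal depth.

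That equal-depth reading was added after the data were seen. Every cell with at least 3000 UMIs was thinned at random to 3000 UMIs, the gate limits were applied to the thinned counts, and cells with at least 2 cycle UMIs were taken as dividing. It left out 3598 Glut5 KO and 1711 Wildtype cells that were too shallow. It kept 312 dividing Glut5 KO and 514 dividing Wildtype cells, which were set against 3032 Glut5 KO and 3241 Wildtype cells with no cycle UMI. Thinning served only to choose these cells. Their levels and log2 ratios, called equal-depth values below, were taken from all their UMIs, so deeper cells weigh more. The dividing cells held 4929465 UMIs in Glut5 KO and 8974631 UMIs in Wildtype. Of the rule's dividing cells, 66 in Glut5 KO and 44 in Wildtype had under 3000 UMIs and were left out, and the other 84 and 66 lay in the equal-depth gate with any number of cycle UMIs after thinning. The equal-depth dividing cells are therefore mostly cells outside the rule's dividing set. Their median depth before thinning was 15813 UMIs in Glut5 KO and 17281 UMIs in Wildtype. Genes of the microglia list summed to 2048 CPM in Glut5 KO and 2274 CPM in Wildtype in them, against 1966 and 1369 CPM in the rule's dividing cells.

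The cells carried the macrophage label they were given. Csf1r, the CSF1 receptor, stood at 391 CPM in Glut5 KO and 463 CPM in Wildtype dividing cells, and Adgre1, which encodes F4/80, at 197 and 121 CPM. Ms4a7, a gene of monocyte-derived macrophages in brain tumours, had 1016 CPM in Glut5 KO and 677 CPM in Wildtype cells. All 13 leukocyte and macrophage identity genes were detected in both libraries. That list includes macrophage genes of the gate, such as Lyz2 and C1qc, whose detection was set by the rule. Microglia genes were detected at very different levels. Cx3cr1, a receptor that monocytes also carry, had 169 UMIs in Glut5 KO and 100 in Wildtype dividing cells, while Siglech had 2 and 8 UMIs and Sparc 15 and 11. The whole microglia list, of which 11 of 12 genes in Glut5 KO and 10 of 12 in Wildtype had a UMI, summed to 1966 CPM in Glut5 KO and 1369 CPM in Wildtype. In non-dividing cells it was lower in Glut5 KO, at 1516 CPM, and about level in Wildtype, at 1316 CPM. In dividing cells with at least 15 microglia marker UMIs per 10000 (78 Glut5 KO and 216 Wildtype cells), the same list summed to 11109 and 9970 CPM. Both sets of cells were chosen on genes of this list, so part of that gap was set by the choice.

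Markers of other cell types ranged from near 0 to a dendritic cell list of 1537 CPM in Glut5 KO and 1274 CPM in Wildtype dividing cells, with 9 and 8 of 10 members detected. That list stood at 1616 and 1553 CPM in non-dividing cells. Glial and glioma markers summed to 19.1 CPM in Glut5 KO and 13.8 CPM in Wildtype dividing cells, with Sox2, Sox9, Ptprz1 and Olig2 at 0. Col1a1 and Col1a2 were also at 0 in both. Neutrophil markers summed to 55.1 CPM in Glut5 KO and 81.4 CPM in Wildtype, and B and plasma cell markers to 335 and 258 CPM. Scrublet, which scores likely doublets, placed 8 Glut5 KO (5.33%) and 7 Wildtype (6.36%) dividing cells in the top 8% of scores of their library.

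The 5 gate genes are a description of the choice and not a result. Birc5, which encodes survivin, was detected in 109 of 150 Glut5 KO and 81 of 110 Wildtype cells, and Ube2c, the ubiquitin-conjugating enzyme of the anaphase-promoting complex, in 99 and 75. Top2a, the topoisomerase that untangles chromosomes, was detected in 91 Glut5 KO and 59 Wildtype cells, Mki67 in 83 and 49, and Cdk1, the mitotic kinase, in 78 and 67. All 5 genes occurred together in 20 Glut5 KO and 19 Wildtype cells. The threshold cut through a continuum, with 36 Glut5 KO and 29 Wildtype cells at exactly 3 cycle UMIs just inside it and 64 and 86 cells at 2 UMIs just outside. The median was 4 cycle UMIs in Glut5 KO and 5 in Wildtype cells, and the highest cell had 80 and 81.

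Promoters of genes of both waves are shown. Cdk1, Ube2c and Top2a are gate genes, so their high level in the dividing cells was set by the rule. Mcm6 is a replication gene that the gate did not count. The sequences are bases -200 to -1 from the RefSeq transcript start (GRCm38.p6), 5′ to 3′ on the gene's strand. They lie at chr10:69352913-69353112 on the minus strand (Cdk1), chr2:164769729-164769928 on the plus strand (Ube2c), chr11:99024190-99024389 on the minus strand (Top2a) and chr1:128359706-128359905 on the minus strand (Mcm6). Capitals mark the CHR letters TTTGAA and the CCAAT letters, on either strand, in the first 3, and the E2F-type letters TTGGCGC, the related letters TTCCCGC and also the letters TTCGCGC, on either strand, in Mcm6, where forward and reverse matches overlap.
Cdk1: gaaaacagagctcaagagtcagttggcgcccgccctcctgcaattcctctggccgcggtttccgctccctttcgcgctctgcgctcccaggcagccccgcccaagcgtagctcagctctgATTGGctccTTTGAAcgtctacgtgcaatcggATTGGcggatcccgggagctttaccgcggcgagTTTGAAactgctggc
Ube2c: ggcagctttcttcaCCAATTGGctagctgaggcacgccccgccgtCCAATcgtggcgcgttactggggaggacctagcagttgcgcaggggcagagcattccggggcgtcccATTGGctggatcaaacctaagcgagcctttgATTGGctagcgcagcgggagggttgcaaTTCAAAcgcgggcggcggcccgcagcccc
Top2a: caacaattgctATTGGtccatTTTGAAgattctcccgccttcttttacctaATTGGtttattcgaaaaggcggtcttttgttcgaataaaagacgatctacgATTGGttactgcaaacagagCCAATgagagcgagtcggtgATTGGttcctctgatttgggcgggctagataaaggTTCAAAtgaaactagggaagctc
Mcm6: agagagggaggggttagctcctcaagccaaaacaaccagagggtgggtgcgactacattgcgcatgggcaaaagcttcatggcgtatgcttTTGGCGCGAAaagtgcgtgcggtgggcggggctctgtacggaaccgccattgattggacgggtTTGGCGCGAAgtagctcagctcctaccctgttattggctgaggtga
Cdk1 had a CHR match 15 bases and another 71 bases before the start, Ube2c had 1 match, 29 bases before it, and Top2a had matches at 23 and 179 bases. Of 49 windows from 47 of 55 late-cycle genes with an entry (the mitotic kinase and spindle lists and the gate genes), 34.7% held the CHR letters and 73.5% the CCAAT letters. Over all 32851 windows of that length, 12.5% held the CHR letters and 29.3% the CCAAT letters. In windows from replication fork genes the shares were 11.1% and 58.3%, so the CCAAT letters were not particular to late-cycle genes. Mcm6 also had 2 CCAAT matches and Cdk1 2 E2F matches, which are not marked above. The E2F letters were in 44.4% of 36 windows from replication fork genes, 12.2% of the late-cycle windows and 5.78% of all windows. These are letter matches and not sites of binding.

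The remaining cell-cycle genes, which the gate did not count, were high across both waves in dividing over non-dividing macrophages. Since the gate sorted cells on this axis, the values describe the cells and are no test. Genes at least 1.5-fold higher made up 25.9% of the genes with at least 20 UMIs in Glut5 KO and 24.8% in Wildtype, and genes at least 1.5-fold lower 11.8% and 14.4%. Against that background, 31 of 31 measured spindle and kinetochore genes were higher in each library, with summed levels of 1746 CPM in dividing and 108 CPM in non-dividing Glut5 KO cells, and 1991 and 101 CPM in Wildtype cells. Nusap1, a spindle microtubule protein, had log2 ratios of 5.91 in Glut5 KO and 6.18 in Wildtype. Every one of the 260 cells held at least 1 UMI of the cycle lists outside the gate genes, and the median cell had 44 such UMIs in Glut5 KO and 48 in Wildtype.

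Replication genes formed the other large group. Of the 36 replication licensing and fork genes, 34 were higher in Glut5 KO and 36 in Wildtype, with median log2 ratios of 2.20 and 2.28. Mcm6, a subunit of the helicase that unwinds DNA, stood at 96.5 CPM in dividing against 22.9 CPM in non-dividing Glut5 KO cells, and at 96.5 against 25.3 CPM in Wildtype cells. Pclaf, a partner of the sliding clamp, had the highest ratios of the list, 5.17 and 5.44. All 15 measured genes of nucleotide supply were higher in Glut5 KO and 13 in Wildtype, led by Rrm2, a subunit of ribonucleotide reductase, at 4.45 and 5.15. The replication histones behaved alike, with 11 of 11 higher in both libraries.

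Genes that control entry into the cycle were less uniform. Foxm1, a driver of mitotic genes, had log2 ratios of 5.43 in Glut5 KO and 5.71 in Wildtype, while Ccnd3, a D-type cyclin, had -0.14 and 0.01. The inhibitor genes Cdkn2c, which encodes p18, and Rbl1, which encodes p107, were higher in dividing cells, at 3.30 and 1.24 in Glut5 KO and 3.87 and 2.11 in Wildtype. Klf4, a transcription factor of monocyte differentiation, was lower, at 80.6 CPM in dividing and 254 CPM in non-dividing Glut5 KO cells, and 91.0 and 282 CPM in Wildtype cells. Cdkn1a, which encodes p21, was lower too, with log2 ratios of -0.67 and -0.88, but the transcription factor gene Maf was not, at 0.81 and 0.47. Csf1r was slightly lower in both, at -0.31 and -0.21.

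Outside the named cycle lists, the highest genes were other parts of the same programme. Cdkn3, a mitotic phosphatase, had log2 ratios of 4.53 in Glut5 KO and 4.62 in Wildtype, and Stmn1, which destabilises microtubules, 4.28 and 4.09. Asf1b, a histone chaperone, had 3.94 and 4.09. Ezh2, the catalytic subunit of Polycomb complex 2, had 2.89 and 2.52, and Gmnn, which blocks a further round of origin licensing, 2.69 and 2.58.

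Summed over cells, replication and mitotic transcripts were balanced alike in the genotypes. The fork list supplied 42.2% [40.7 to 43.6] of the fork plus mitotic and spindle UMIs in Glut5 KO and 41.0% [39.5 to 42.6] in Wildtype dividing cells. In non-dividing cells it supplied 68.4% and 68.6%. The per-cell median of this share was 32.8% in Glut5 KO and 38.5% in Wildtype dividing cells, and 32.7% and 33.7% at equal depth. The 5 gate genes are mostly late-cycle genes, so a cell early in S phase can lie outside the dividing set, and 91 Glut5 KO (2.74% of gated cells) and 96 Wildtype (3.72%) cells outside the dividing set had at least 10 fork UMIs. Within the dividing set, 49 Glut5 KO and 41 Wildtype cells had that many.

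Genes of recently recruited monocytes were low in dividing macrophages. Of the 14 genes, 12 were at least 1.5-fold lower in Glut5 KO and 14 in Wildtype, and the sum was 2272 CPM in dividing Glut5 KO cells against 7312 CPM in non-dividing ones, and 2052 against 7672 CPM in Wildtype. Ly6c2, the surface mark of inflammatory monocytes, had 523 CPM in dividing and 2209 CPM in non-dividing Glut5 KO cells, and 419 and 1869 CPM in Wildtype cells. Plac8 had log2 ratios of -2.09 and -2.15, and Ccr2, the receptor that brings monocytes out of the marrow, -1.25 and -1.70. In the median dividing cell the list held 11.7 UMIs per 10000 in Glut5 KO and 5.15 in Wildtype, against 44.3 and 52.9 in the median non-dividing cell. Neutrophil markers were also lower in dividing than in non-dividing Glut5 KO cells, 55.1 against 328 CPM, but about level in Wildtype, 81.4 against 90.3 CPM, and their part in the result was not tested.

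**Figure D1:**
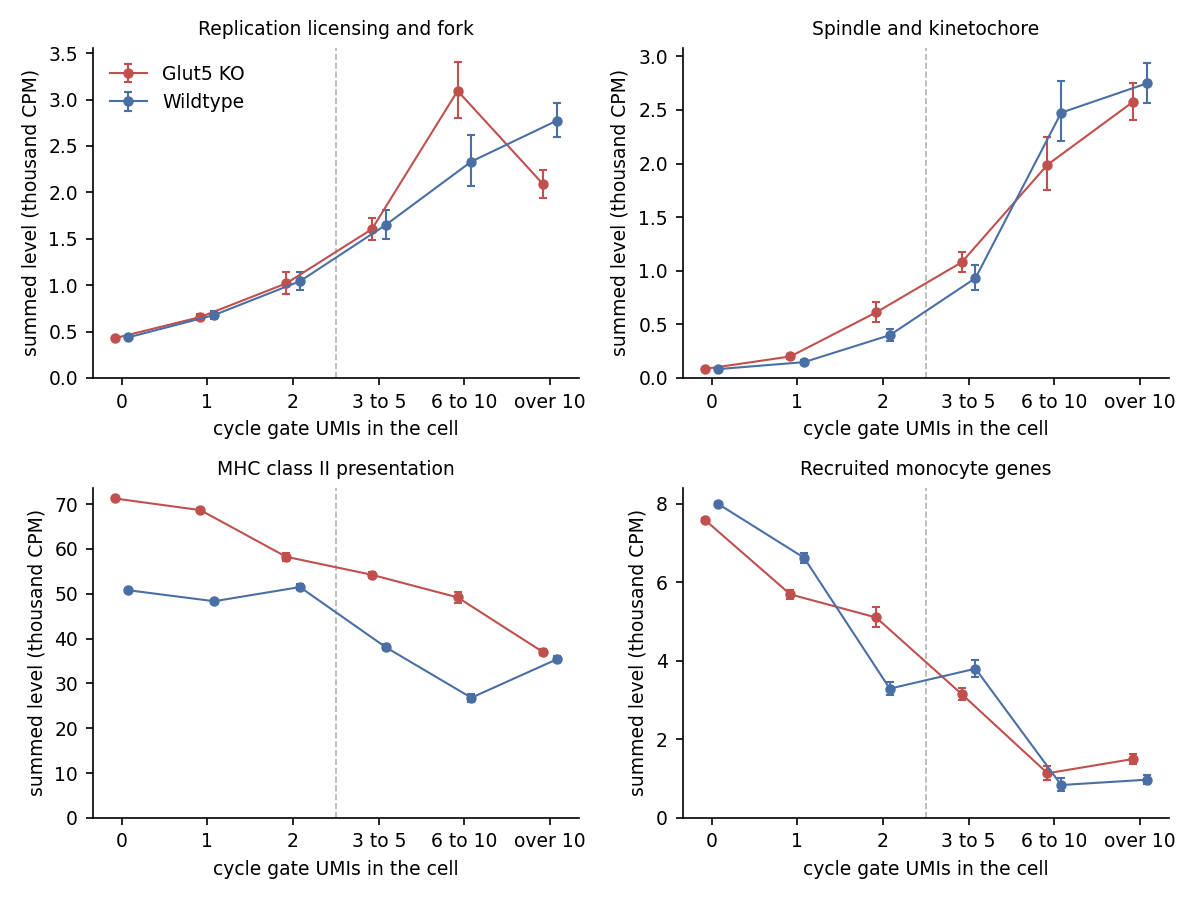
Summed level in units of 1000 CPM (y axes) of 4 gene lists in gated macrophages grouped by their number of cycle gate UMIs (x axes), with exact Poisson intervals, in Glut5 KO (red) and Wildtype (blue). The dashed line is the threshold of 3 cycle UMIs. Replication and spindle genes are higher to its right, and monocyte genes lower, with 7591 CPM in Glut5 KO and 7989 CPM in Wildtype cells with 0 cycle UMIs and 1499 and 971 CPM in cells with over 10.

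MHC class II genes, whose products present peptides to CD4+ T cells, were lower in dividing cells by less. Their sum was 47290 CPM in dividing and 70679 CPM in non-dividing Glut5 KO cells, and 34952 and 50510 CPM in Wildtype cells, log2 ratios of -0.58 and -0.53. Of 14 genes, 4 were at least 1.5-fold lower and 1 higher in Glut5 KO, and 1 lower and 1 higher in Wildtype, so the Wildtype share of lower genes was below that of all genes. With the gate read at equal depth, cells with 0, 1 and at least 2 cycle UMIs had 65714, 57461 and 41136 CPM in Glut5 KO and 40694, 30210 and 21023 CPM in Wildtype. The level was lower at each step in both libraries, while median depth rose, from 8463 to 15813 UMIs in Glut5 KO and 8303 to 17281 UMIs in Wildtype. By the rule's gate the level also fell at each step in Glut5 KO, but not in Wildtype. There it was 50768, 48322, 51481, 38079, 26794.5 and 35392 CPM with 0, 1, 2, 3 to 5, 6 to 10 and over 10 cycle UMIs. The type I interferon list was lower as well, by -0.51 in Glut5 KO and -0.74 in Wildtype, with 10 and 21 of 29 genes at least 1.5-fold lower and 0 higher. Against depth-matched non-dividing cells the Glut5 KO value was smaller, at -0.19. Inflammatory and hypoxic genes had 10 of 16 lower and 1 higher in Glut5 KO and 9 of 15 lower and 1 higher in Wildtype. Among them Vegfa, the angiogenic factor, had log2 ratios of -1.81 and -1.19, and Il1b, an inflammatory cytokine, -0.78 and -0.99. Dissociation and immediate-early genes, which tissue digestion can switch on, stood at 10830 CPM in dividing and 15411 CPM in non-dividing Glut5 KO cells, and at 10034 and 13383 CPM in Wildtype cells, with 5 of 15 lower in each. Their part in these results was not tested.

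A few groups were higher in dividing cells without belonging to the cycle. Ribosome biogenesis genes had a log2 ratio of the sum of 0.38 in Glut5 KO and 0.33 in Wildtype, with Nop58, a nucleolar protein that guides the modification of ribosomal RNA, at 1.22 and 0.89. Oxidative phosphorylation genes were slightly higher, 0.18 and 0.29, although only 2 and 5 of 46 passed 1.5-fold. Among the macrophage genes that the gate itself used, which are a description, C1qc, a complement gene, had log2 ratios of 0.59 and 0.82, C1qa 0.41 and 0.64, and Lyz2, lysozyme, -0.98 and -1.04. Ccl7 and Ccl8, both monocyte-attracting chemokines, had 1.28 and 1.25 in Glut5 KO and 1.39 and 3.02 in Wildtype. The chemokine list as a whole was mixed, with 5 of 16 genes higher and 6 lower in Glut5 KO, and 6 higher and 4 lower in Wildtype. Its sum was at -0.10 and -0.21.

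**Figure D2:**
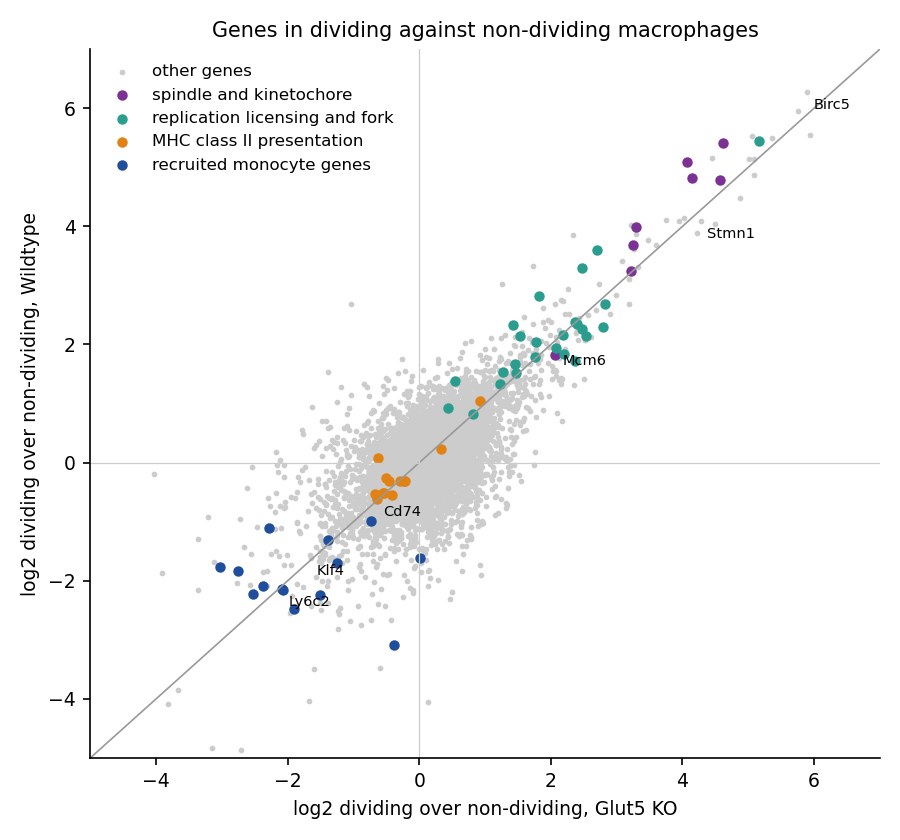
Log2 ratio of each gene's CPM in dividing over non-dividing macrophages in Glut5 KO (x axis) and Wildtype (y axis), for genes with at least 100 UMIs in both comparisons. The grey line marks equal ratios. Spindle genes lie at the upper right, fork genes between them and the centre, and recruited monocyte genes at the lower left, with Ly6c2 at -2.08 and -2.15.

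By the rule as written, the genotypes had similar shares of dividing macrophages. In Glut5 KO 150 of 3316 gated cells divided (4.52% [3.84 to 5.29]) and in Wildtype 110 of 2579 (4.27% [3.52 to 5.12]), a ratio of 1.06 [0.824 to 1.37]. With the rule's gate kept and only cycle genes thinned, to 3000 UMIs, the shares were 2.52% in Glut5 KO and 2.02% in Wildtype. The ratio was 1.24 [0.802 to 1.94], at 3 or more cycle UMIs. Cycle genes thinned to 5000 UMIs gave 2.55% and 2.69%, a ratio of 0.947 [0.59 to 1.52]. With the gate itself read at equal depth, the share was lower in Glut5 KO. It was 312 of 3616 cells (8.63% [7.73 to 9.59]) against 514 of 4094 in Wildtype (12.6% [11.6 to 13.6]), a ratio of 0.687 [0.595 to 0.793]. At 5000 UMIs per cell the shares were 7.96% in Glut5 KO and 12.4% in Wildtype. Cells with at least 6 UMIs of Ccr7 and Fscn1 at the same depth, which are mature dendritic cells that seldom divide, passed 2 cycle UMIs in 3.60% of 222 Glut5 KO and 2.07% of 290 Wildtype cells, at median depths of 6539.5 and 5610.5 UMIs before thinning.

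The equal-depth difference was seen in male cells and in cells without a clear sex, and not in female cells. Of cells with Y-linked UMIs and no Xist, 61 of 990 in Glut5 KO divided (6.16% [4.75 to 7.84]), against 236 of 1501 in Wildtype (15.7% [13.9 to 17.7]). Of cells with Xist and no Y-linked UMI, 189 of 1200 in Glut5 KO (15.8% [13.7 to 17.9]) and 148 of 985 in Wildtype (15.03% [12.9 to 17.4]) divided, and the intervals overlap. Cells with neither or both had 4.35% [3.35 to 5.54] of 1426 dividing in Glut5 KO and 8.08% [6.80 to 9.53] of 1608 in Wildtype. With the rule's own gate the male shares were 2.48% in Glut5 KO and 3.15% in Wildtype, and the female shares 10.2% and 3.35%. Sex, animal and genotype cannot be told apart, since a sex may come from 1 animal in each library.

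**Figure D3:**
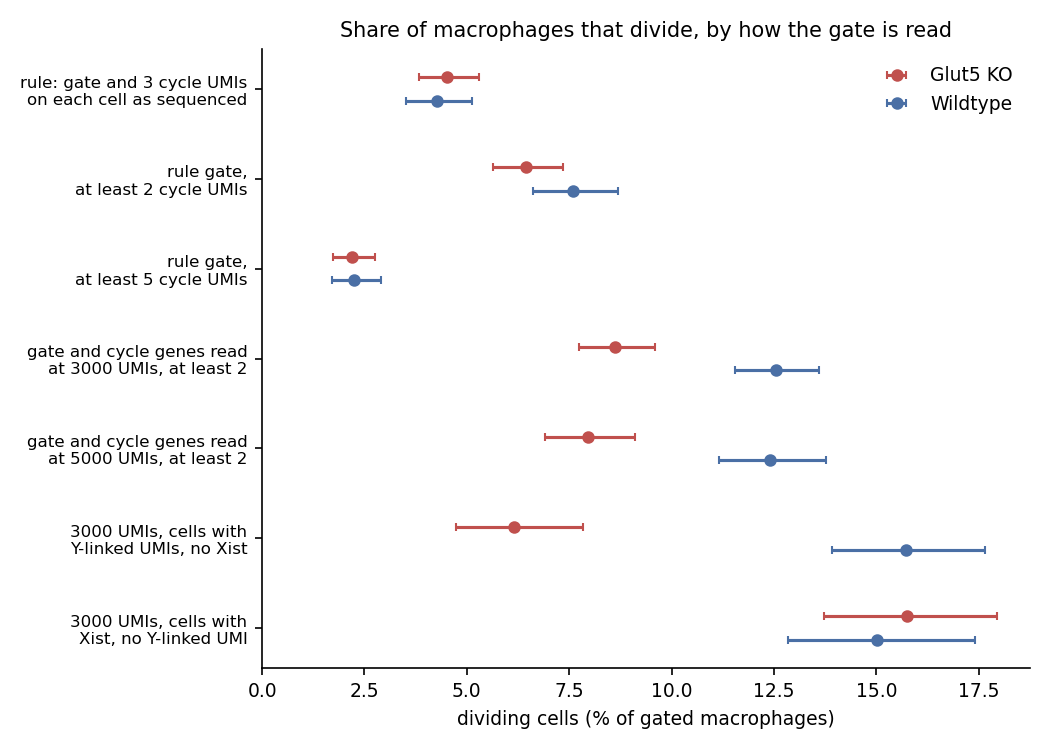
Dividing cells as a percentage of gated macrophages (x axis) under 7 readings of the gate (rows), in Glut5 KO (red, upper of each pair) and Wildtype (blue), with exact binomial intervals. The pairs overlap under the rule's gate and part where the gate is read at equal depth, 8.63% in Glut5 KO against 12.6% in Wildtype. There the male cells show the gap and the female cells do not.

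Inside the dividing cells, the genotypes differed in MHC class II. In the median dividing cell the list held 399 UMIs per 10000 in Glut5 KO (quartiles 177 and 629), against 79.2 in Wildtype (48.3 and 335). H2-Aa, a class II alpha chain, stood at 6779 CPM in Glut5 KO and 5215 CPM in Wildtype dividing cells, and H2-Eb1, a beta chain, at 6608 and 4200 CPM. With every cell thinned to 1000 UMIs, 83.0% [75.9 to 88.7] of 147 Glut5 KO and 53.5% [43.2 to 63.6] of 99 Wildtype dividing cells held an H2-Aa UMI, with 3 and 11 shallower cells left out. Unthinned, the shares were 92.7% and 60.9%. In T cells, which lack MHC class II in mice, the thinned share was 25.1% of 418 in Glut5 KO and 28.6% of 203 in Wildtype ([21.03 to 29.6] and [22.5 to 35.3]; 44.7% and 38.4% unthinned, at median depths of 8458.5 and 9845 UMIs). The T cell shares had overlapping intervals at 1000 UMIs and were slightly higher in Glut5 KO unthinned, and the part of free RNA in the macrophage shares was not tested.

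Summed over cells the MHC class II difference was smaller, 47290 CPM in Glut5 KO against 34952 CPM in Wildtype, log2 0.44 [0.41 to 0.46]. A minority of deep Wildtype cells was rich in these genes. Of 13 measured genes 1 was at least 1.5-fold higher, H2-Eb1 at 0.65, and 1 was lower, the costimulatory receptor Cd40 at -0.62, while over all 7355 genes with at least 20 UMIs 12.6% were higher and 7.95% lower. At equal depth the sums were 41136 CPM in Glut5 KO and 21023 CPM in Wildtype, log2 0.97, and 8 of 14 genes were higher and 0 lower, against 5.39% and 6.55% of all 11267 genes. The non-dividing cells had the same direction, at log2 0.48 with the rule's gate and 0.69 at equal depth, so the difference was not confined to dividing cells. There 2 of 14 genes were higher and 0 lower with the rule's gate, where 6.9% of all 11975 genes were higher and 3.65% lower, and 5 of 14 were higher at equal depth. At equal depth, B and plasma cell markers also stood at 1105 CPM in Glut5 KO and 301 CPM in Wildtype dividing cells, and 798 and 208 CPM in the cells with no cycle UMI. B cells express MHC class II too, and their part in the result was not tested.

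Interferon response genes were higher in Glut5 KO dividing cells as well. Of 23 measured genes of the interferon-gamma list, 11 were at least 1.5-fold higher and 0 lower, with a median log2 ratio of 0.58, and of 29 of the type I list 16 were higher and 0 lower, with a median of 0.61. The median over all genes was 0.02. Gbp2, a guanylate-binding protein, had 317 CPM in Glut5 KO and 137 CPM in Wildtype, and Ifit3, an antiviral protein, 269 and 123 CPM. Cxcl9, a chemokine that attracts activated T cells, had 682 CPM in Glut5 KO and 223 CPM in Wildtype, but 182 of its 643 Glut5 KO UMIs lay in 1 cell. Irf1 at -0.07 and Ifitm3 at 0.03 were nearly level by the rule's gate, though at 0.93 and 0.42 at equal depth, and summed levels were 4230 CPM in Glut5 KO against 2715 CPM in Wildtype for the interferon-gamma list and 11677 against 9090 CPM for the type I list.

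At equal depth the interferon counts were larger in dividing cells than in the cells with no cycle UMI. The interferon-gamma list had 20 of 26 genes higher and 0 lower in dividing cells, with a median log2 ratio of 1.01, and 10 of 26 higher in the non-dividing cells, with a median of 0.53. The type I list had 23 of 29 higher with a median of 0.84, against 7 of 29 with a median of 0.42. In the non-dividing cells 5.83% of all 13281 genes were higher and 6.21% lower. Whether the genotype difference itself differs between dividing and non-dividing cells was not tested, as there is no replicate.

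**Figure D4:**
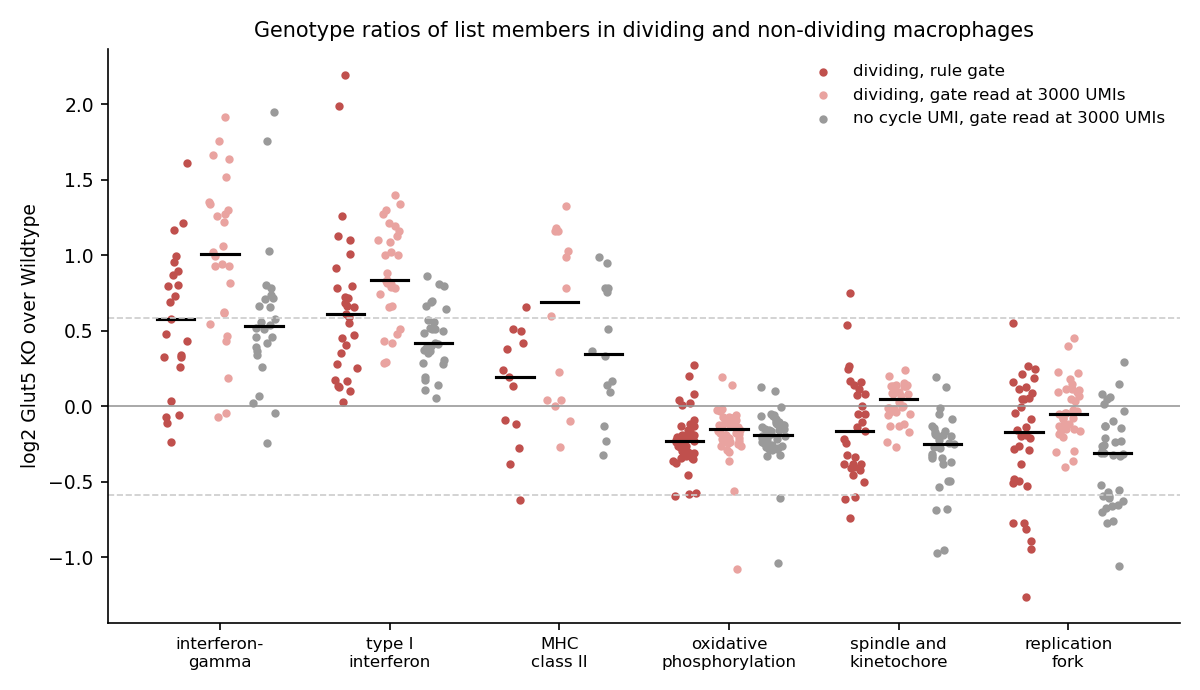
Log2 ratio of Glut5 KO over Wildtype (y axis) for each member of 6 gene lists (x axis) with at least 20 UMIs, in dividing cells of the rule's gate (dark red), dividing cells at equal depth (light red) and cells with no cycle UMI at equal depth (grey). Black bars are medians and dashed lines mark 1.5-fold. Type I interferon genes lie above 0 in all 3 sets, with medians of 0.61, 0.84 and 0.42.

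Within each sex at equal depth, MHC class II was higher in Glut5 KO dividing cells. Male cells had 42324 CPM in Glut5 KO and 24641 CPM in Wildtype, and female cells 40298 and 9330 CPM. The interferon-gamma list stood at 2263 CPM in Glut5 KO and 1916 CPM in Wildtype male cells, and at 3494 and 1395 CPM in female cells. The type I list was about level in male cells, 5918 CPM in Glut5 KO and 6166 CPM in Wildtype, and higher in Glut5 KO female cells, 11797 against 7087 CPM. Cells with neither or both had a type I sum of 11248 CPM in Glut5 KO and 7357 CPM in Wildtype, and MHC class II at 43044 and 27980 CPM. Whether the genotype difference itself differs between the sexes was not tested.

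**Figure D5:**
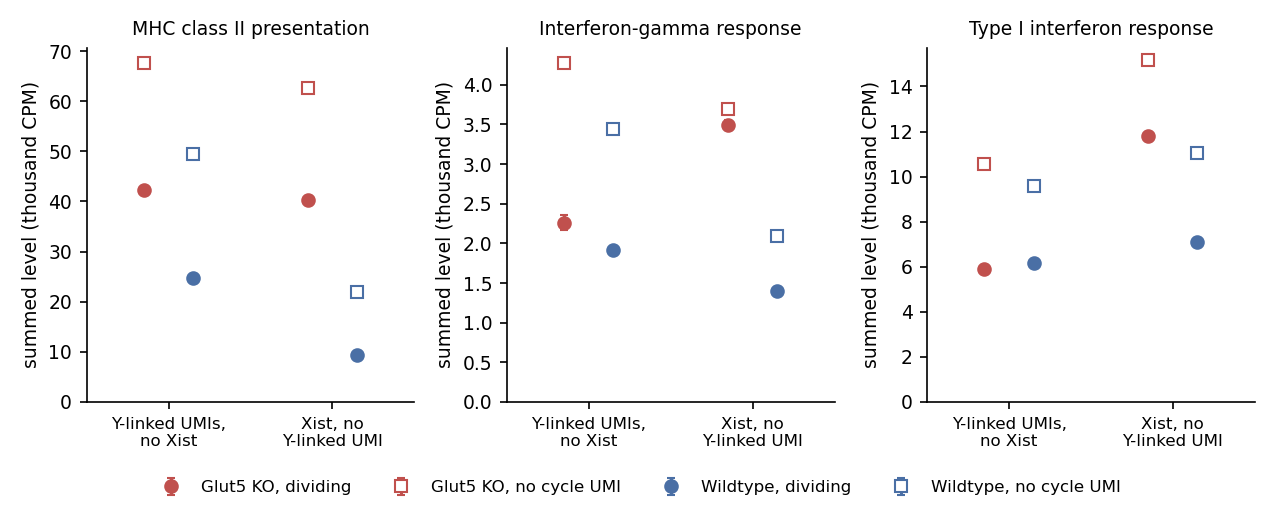
Summed level in units of 1000 CPM (y axes) of 3 gene lists at equal depth in cells with Y-linked UMIs and no Xist, and with Xist and no Y-linked UMI (x axes), in Glut5 KO (red) and Wildtype (blue). Filled circles are dividing cells, open squares cells with no cycle UMI, with Poisson intervals mostly smaller than the symbols. MHC class II is lowest in Wildtype female dividing cells, at 9330 CPM.

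In dividing cells, cell-cycle genes differed little between the genotypes with the gate read at equal depth. By the rule's gate the G2 and mitotic kinase list had 978 CPM in Glut5 KO and 1256 CPM in Wildtype, log2 -0.36, and nucleotide supply 1043 and 1367 CPM, log2 -0.39. Tyms, thymidylate synthase, was at 103 CPM in Glut5 KO and 175 CPM in Wildtype, and Ccnb1, cyclin B1, at 36.1 and 85.5 CPM. At equal depth those lists were at -0.03 and -0.10, and 0 of 18 mitotic kinase, 0 of 32 spindle and 0 of 36 fork genes passed 1.5-fold in either direction. With the rule's own dividing cells thinned to 3000 UMIs instead, the mitotic kinase list was at -0.40 and nucleotide supply at -0.53. The spindle list was at -0.22 and the fork list at -0.36. In the cells with no cycle UMI at equal depth, 11 of 36 fork and 5 of 15 nucleotide supply genes were lower in Glut5 KO and 0 higher, with log2 ratios of the sums of -0.36 and -0.40. Ccnd1, cyclin D1, which couples growth factor signals to the cycle, had 227 CPM in Glut5 KO and 105 CPM in Wildtype by the rule's gate and a log2 ratio of 0.31 at equal depth.

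The highest single genes of Glut5 KO over Wildtype dividing cells rested partly on single cells. Gpnmb, a lysosomal glycoprotein, had 284 Glut5 KO UMIs, of which 235 were in 1 cell, against 13 in 1 Wildtype cell. Spp1, which encodes osteopontin, had 953 Glut5 KO UMIs, of which 816 were in 1 cell, against 164 Wildtype UMIs. Fabp5, a fatty acid chaperone, had 182 of 324 Glut5 KO UMIs in 1 cell, against 92 Wildtype UMIs. None of these 3 genes was higher in Glut5 KO at equal depth, where the log2 ratios were -0.65, -0.91 and -0.52. Zbtb20, a transcriptional repressor, was spread more widely, with 91 UMIs in 58 Glut5 KO cells, at most 8 in a cell, against 21 UMIs in 13 Wildtype cells, and its log2 ratio was 1.71 by the rule's gate, 1.20 at equal depth and 1.31 in non-dividing cells. Ifi211, an interferon-induced gene, was at 1.39 and 1.14 at equal depth. Egr1, Atp13a2 and Clk1, at 1.37, 1.36 and 1.27, were at 0.42, 0.22 and 0.36 at equal depth.

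Among the lowest genes, Sh3bgrl3, a small thioredoxin-like protein, was the broadest. It had 714 CPM in 131 Glut5 KO cells against 1738 CPM in 104 Wildtype cells, log2 -1.28 [-1.42 to -1.15], with -1.38 at equal depth and -1.30 in non-dividing cells. Lipg, endothelial lipase, had 6 Glut5 KO UMIs against 123 Wildtype UMIs in 6 cells. Apoc2, an activator of lipoprotein lipase, was at -1.40 and at -0.89 at equal depth. Cxcl13, a B cell chemokine, was at -2.67 by the rule's gate but at 0.60 at equal depth, and Cd300e, a myeloid surface receptor, at -1.33 but 0.18. Ethe1, Plk2, Klf2, Hspa1a and Clec4n had log2 ratios between -1.39 and -1.13 by the rule's gate, and between -0.94 and -0.10 at equal depth.

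Most oxidative phosphorylation genes were slightly lower in Glut5 KO, and glycolysis and lactate genes were closer to level. Oxidative phosphorylation genes summed to 14503 CPM in Glut5 KO and 17181 CPM in Wildtype dividing cells, log2 -0.24, with 0 of 46 at least 1.5-fold higher and 1 lower, the complex I gene Ndufb9 at -0.60. The ratio was below 0 for 40 of the 46 genes, and for 44 at equal depth, where the sum was at -0.17. Non-dividing cells had -0.14. Glycolysis and lactate genes had a log2 ratio of the sum of -0.09, and fructose and polyol genes one of -0.27 by the rule's gate and -0.09 at equal depth. The sum of lipid-handling genes, 7362 CPM in Glut5 KO against 5246 CPM in Wildtype, includes the Spp1, Gpnmb and Fabp5 UMIs above, and its log2 ratio was 0.49 by the rule's gate and -0.26 at equal depth.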

How the data were processed

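The deposited values were raw UMI counts per gene and barcode for 32285 genes, with no normalization by the authors, per the file headers. Per the labels' protocols, 10x 5' chemistry was used for both libraries. The submitters' processing notes name Cell Ranger 3.1.0 and mm10, while the file header gives version 7.0.1. Whether intron reads were counted is not given in the sources used here.

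From these counts, cells were gated as the report states, UMIs were summed per class and library, and CPM was taken over all genes. Log2 ratios used a prior of 0.5 UMI, and genes with at least 20 UMIs in a comparison were measured. Called means at least 1.5-fold. Intervals are exact (Poisson, Clopper-Pearson, conditional binomial, 95%), and a floor is 3 UMIs. The members and gene lists were chosen with earlier results of these data known. Named genes were the 10 highest and 10 lowest between genotypes and the 12 highest and 12 lowest between dividing and non-dividing cells, with at least 100 UMIs and 50 CPM, plus the ends of each list. Not all of them are printed.

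The alternatives were TMM (edgeR 4.0.16) and DESeq2 1.42.0 size factors for scaling only, other thresholds, thinning, doublet removal (Scrublet in scanpy 1.11.5), depth splits, depth-matched non-dividing cells and sex classes. Python 3.11.15, NumPy 2.4.6, SciPy 1.17.1 and pandas 2.3.3 were used. The ratio code was tested on simulated data.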

Additional observations from a re-analysis of the deposited data

Results flagged for a closer look

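Male and female cells went opposite ways between the genotypes in some values, and no difference between the sexes was tested. With the rule's gate, the log2 ratio of the share of dividing macrophages, Glut5 KO over Wildtype, was -0.34 in male and 1.61 in female cells. At equal depth it was -1.35 in male and 0.068 in female cells. With the rule's gate, the MHC class II sum in dividing cells had log2 ratios of -0.19 in male and 3.49 in female cells. The interferon-gamma list had -0.81 in male and 1.95 in female cells, and the type I list -0.51 and 0.28. At equal depth the type I list had -0.059 in male and 0.74 in female cells. The rule's gate left 15 Glut5 KO and 21 Wildtype male cells and 64 and 13 female cells, so those ratios rest on few cells, and how many animals stand behind a sex is not known.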

How the results depend on the processing

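No paired analysis was possible because each genotype had 1 library, and leaving a library out ends the comparison. Of 298 alternative values, 148 stayed within the counting interval of the reported value (counts of genes within 1.5 times), 134 moved beyond it and 16 were labelled as changed in sign. The share of dividing cells also changed sign in several settings, but was not counted among the 16. Its counting interval ran from -0.28 to 0.45. Values inside that interval included -0.24 with at least 2 cycle UMIs and -0.079 with cycle genes thinned to 5000 UMIs. All values are log2 ratios of Glut5 KO over Wildtype unless said otherwise.

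The share of dividing cells (0.08) was -0.37, -0.54, -0.64 and -0.50 with the gate read at equal depth (at least 1 or 2 cycle UMIs of 3000, 2 of 5000, or 3 before thinning), -0.34 in male and 1.61 in female cells, and -1.35 in male cells at equal depth. MHC class II (0.44) was 0.41 under TMM and 0.41 under DESeq2 scaling, 0.55 thinned, 0.25 with at least 5 cycle UMIs, 0.93 as a mean over cells, 0.62 without likely doublets, -0.19 in male and 3.49 in female cells, 0.97 at equal depth (0.78 male, 2.11 female), 0.33 in cells with at least 5000 UMIs, 1.58 below that, and 0.59 without the 5 deepest cells. The interferon-gamma list (0.64) was, in the same order from thinned on, 0.54, 0.98, 0.82, then -0.81 male, 1.95 female, 0.85 at equal depth (0.24 male, 1.32 female), 0.52, 1.60 and 0.53. The type I list (0.36) was 0.64 with at least 5 cycle UMIs, 0.45 as a mean over cells, -0.51 male, 0.28 female, 0.65 at equal depth (-0.059 male, 0.74 female), 0.27, 1.09 and 0.30. In non-dividing cells, equal depth gave 0.69 for MHC class II (0.48), 0.40 for interferon-gamma (0.20) and 0.28 for type I (0.13).

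Genes at least 1.5-fold higher (925) were 3332 without a filter, 138 with at least 100 UMIs, 423 thinned, 1862 as a mean over cells, 436 in male cells and 607 at equal depth. Genes lower (585) were 2270 without a filter, 77 with at least 100 UMIs, 968 as a mean over cells, 1326 in female cells and 954 in male cells at equal depth.

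Besides the sign changes given above, signs changed for lipid handling (0.49), at -0.49 with at least 5 cycle UMIs, -0.16 as a mean over cells, -0.26 at equal depth, -0.18 in female cells there and -0.87 under 5000 UMIs. They also changed for monocyte genes (0.15; -0.023 from 5000 UMIs), mitotic kinases (-0.36; 0.034 in male cells at equal depth), spindle genes (-0.19; 0.018 as a mean over cells, 0.11 male and 0.028 female at equal depth) and nucleotide supply (-0.39; 0.018 male at equal depth).

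For dividing over non-dividing cells, MHC class II in Glut5 KO (-0.58) was -0.53 against depth-matched cells, -0.56 scaled without cycle genes, -0.61 without doublets and -0.68 at equal depth, and in Wildtype (-0.53) it was -0.78, -0.75 without doublets and -0.95 at equal depth. Monocyte genes in Glut5 KO (-1.69) were -1.23 depth-matched and -1.90 at equal depth, and in Wildtype (-1.90) -1.34 and -2.06. The interferon-gamma list in Glut5 KO (-0.27) was 0.12 depth-matched. The fork share in Glut5 KO (42.2%) was 39.8% with at least 5 cycle UMIs and 37.9% at equal depth, and in Wildtype (41.0%) 43.1% thinned and 38.3% at equal depth. The cause was not tested for any of these.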
